A study of Rattus norvegicus with 10 samples.

Results

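Messenger RNA of 10 neuropeptide and granin genes was followed in the hippocampus of rats after traumatic brain injury (TBI). The genes were Penk, Pdyn, Tac1, Gal, Nts, Adcyap1, Vgf, Scg2, Chga and Chgb, out of 16610 genes that could be named in the count table. They were picked by symbol, and for each gene the RefSeq RNA record with the highest mean count was taken. A total of 13 records belonged to the 10 genes, because Tac1 had 4. All 10 genes passed the filter on low counts. Both groups were adult male Sprague-Dawley rats that were anaesthetised with pentobarbital and chloral hydrate and received a craniectomy of 5 mm over the left parietal lobe. The 5 TBI rats then received a lateral fluid percussion impact, on average 3.32 atm, on the intact dura, and the 5 sham rats did not. At 3 months, tissue with CA3 and dentate gyrus was taken from the left hippocampus, which the labels call dorsal hippocampus. Per the methods, the injured rats were not monitored by EEG and showed no handling-related seizures, so whether a given rat was epileptic is not known.

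Neuropeptides are cut from larger precursor proteins inside dense core vesicles and act mostly through G protein-coupled receptors. Granins are acidic proteins of the same vesicles that take part in vesicle formation and are themselves cut into peptides. In the hippocampus the opioid precursors are known from granule cells and their mossy fibres, galanin mainly from incoming fibres, and many peptide and granin genes are known to respond to neuronal activity.

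Between 23425817 and 31671838 counts per library fell on RNA records. Ribosomal RNA took 12.5% to 26.2% of these in 8 libraries and 59.0% and 58.5% in sham replicates 4 and 5, which left 12686398 to 24735107 counts outside ribosomal RNA. No TBI library was as rich in ribosomal RNA. Markers of the dissected parts were present, with the CA3 gene Grik4 at 127 CPM ± 16.7 and the dentate granule gene C1ql2 at 97.6 CPM ± 38.0 in sham rats (SD, n = 5), where CPM is the count scaled to the TMM-adjusted library size. The dentate granule markers were low in sham replicate 1, with a summed level of 54.8 CPM against 167 to 190 CPM in the other sham rats. In whole tissue, fewer cells of a type and less RNA per cell cannot be told apart.

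Galanin mRNA was higher in TBI rats by 2.86-fold, neurotensin mRNA was 4.85-fold higher with a wide interval, and the mRNAs of secretogranin II and proenkephalin were lower, at 0.821-fold and 0.628-fold. The other 6 genes had intervals that included no change. Of the 10 genes, 0 passed a Benjamini-Hochberg adjusted p of 0.05 over the 22431 records tested with edgeR's quasi-likelihood test, as was the case for 0% of all records. DESeq2, which gave some records no adjusted p, called 1 of the 10, Gal, among 3 records called. The exact test of edgeR called 0 of the 10 and 0 of all records. At an unadjusted p under 0.05 there were 4 of the 10 genes, against 7.89% of all records. These were 2 higher, against 4.89% of all records, and 2 lower, against 3%. The median log2 change of the 10 genes was 0.04 and that of all records was -0.01. The genes were chosen with earlier results of these data known, and Gal and Nts stand in the study's own list of altered genes for this model, so these counts are not independent evidence of a change. In that list both had an adjusted p under 0.05, which neither reached here with edgeR's quasi-likelihood test. Penk and Scg2 are not in it. The study's methods name fewer sham rats for this mRNA measurement than the labels and the table hold, so its list may rest on another set of libraries.

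**Figure D1:**
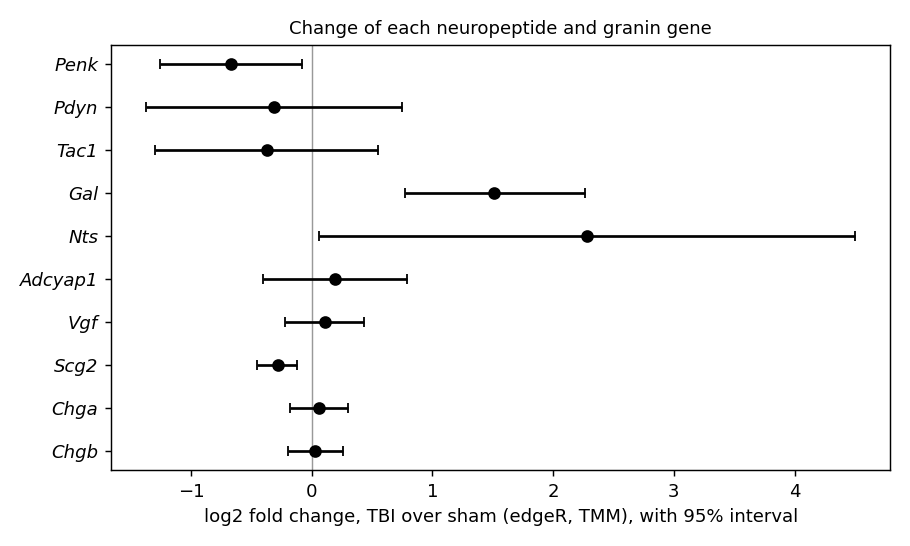
Log2 fold change of each of the 10 genes, TBI over sham (x axis, edgeR with TMM normalization), with points for the estimate and bars for the 95% interval. The interval of Gal runs from 0.77 to 2.26 and that of Nts from 0.06 to 4.50, while those of Scg2 and Penk lie below 0 and the other 6 include 0.

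The opioid precursors were considered first. Penk encodes proenkephalin, the precursor of the enkephalins. It was 6.80, 12.2, 7.80, 11.4 and 7.19 CPM in sham replicates 1 to 5 and 3.97, 5.56, 8.01, 7.53 and 3.39 CPM in TBI replicates 1 to 5. Sham replicates 2 and 4 were the highest and TBI replicates 1, 2 and 5 the lowest, while TBI replicates 3 and 4 lay within the range of the sham rats. The means were 9.07 CPM ± 2.52 in sham and 5.69 CPM ± 2.06 in TBI (SD, n = 5). This was a log2 change of -0.67 (SE 0.266, edgeR adjusted p = 0.589). The unadjusted edgeR p of 0.029 became 0.0743 without sham replicate 2, 0.0582 without sham replicate 4, 0.0639 without TBI replicate 1 and 0.0561 without TBI replicate 2, with log2 changes of -0.66 to -0.53. It was also 0.155 with the ribosomal RNA share as a covariate, 0.0695 without both libraries rich in ribosomal RNA, 0.063 with total counts outside ribosomal RNA and 0.572 with total count scaling, where the log2 change was -0.18. Total count scaling moved the median of all records to 0.50, and relative to that median the change was -0.68. With total counts outside ribosomal RNA the log2 change was -0.53, where the median of all records was 0.141. The two-sided exact permutation p on log2 CPM was 0.0714 (n = 5 per group).

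Pdyn encodes prodynorphin, the precursor of the dynorphins, a known product of dentate granule cells. It was 28.4, 133, 93.5, 103 and 83.8 CPM in the sham rats and 67.5, 66.5, 127, 65.2 and 30.1 CPM in the TBI rats, in order of replicate. The groups overlapped over nearly their whole range, since a sham rat was the lowest and another the highest of all 10. The log2 change was -0.31 with a 95% interval from -1.37 to 0.75, so a change within these bounds in either direction remained possible. The 5 rats lowest in Pdyn, sham replicate 1 and TBI replicates 1, 2, 4 and 5, were also the 5 lowest in the summed dentate granule markers. Those markers reached 54.8 to 190 CPM in sham and 75.0 to 185 CPM in TBI rats. Of 6 markers, 4 were tested, 0 had an unadjusted p under 0.05, and Tdo2 was at 0 in most libraries. Pdyn relative to these markers, a ratio chosen after seeing the data, differed by -0.08 on the log2 scale (TBI minus sham, two-sided exact permutation p = 0.667, n = 5 per group), with an SD of 0.317 in sham and 0.317 in TBI rats.

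Tac1 encodes preprotachykinin, the precursor of substance P and neurokinin A. It was near the limit of detection, with 1 to 18 counts per sham library and 3 to 9 per TBI library on its main record. The 4 Tac1 records had totals of 71, 69, 67 and 59 counts. How reads shared by these isoforms were counted is not given in the sources used here, so single isoforms are not told apart. When the 4 records were summed, Tac1 was 1.75, 0.611, 0.780, 0.884 and 0.375 CPM in sham and 0.638, 1.14, 0.557, 0.727 and 1.11 CPM in TBI rats. Sham replicate 1 was the highest in both readings. The log2 change of the main record was -0.37 with a 95% interval from -1.30 to 0.55, and 0.23 without sham replicate 1.

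Gal encodes the precursor of galanin, a peptide that dampens glutamate release and is known as an endogenous anticonvulsant. It was 0.375, 0.539, 1.49, 1.02 and 1.12 CPM in sham replicates 1 to 5 and 3.62, 2.63, 1.23, 2.34 and 2.85 CPM in TBI replicates 1 to 5. TBI replicates 1, 2, 4 and 5 were above each sham rat, and the groups overlapped through TBI replicate 3 and sham replicate 3 only. These values rested on 12 to 46 counts in sham and 42 to 125 counts in TBI libraries. The means were 0.911 CPM ± 0.454 in sham and 2.54 CPM ± 0.870 in TBI (SD, n = 5). Gal thus had a log2 change of 1.51 (SE 0.348, edgeR adjusted p = 0.477). Its unadjusted p of 0.000714 was the 29th smallest of all records. With DESeq2 the adjusted p was 0.0400, and with edgeR without TBI replicate 3 it was 0.0488, with a log2 change of 1.69. Over all alternatives the adjusted p ranged from 7.61e-05 with total count scaling to 0.998 with the ribosomal RNA covariate. Total count scaling moved the median log2 change of all records to 0.50 and called 92 records. The direction and an unadjusted p under 0.05 held in each of the 21 alternatives fixed for this gene, including the fit without both libraries rich in ribosomal RNA, where the log2 change was 1.66.

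The order of the rats in Gal was close to that in Gfap, the intermediate filament of reactive astrocytes, which made up most of the summed level of the 4 astrocyte markers. The 4 rats highest in Gal were also the 4 highest in this sum, and in sham rats replicate 3 was the highest in both. The summed markers were 1390 to 2210 CPM in sham and 1550 to 3010 CPM in TBI rats. All 4 markers were tested and 1, Gfap, had an unadjusted p under 0.05, with a log2 change of 0.82. The water channel gene Aqp4 had a log2 change of 0.53, and the glutamate transporter genes Slc1a2 and Slc1a3 had 95% intervals from -0.18 to 0.31 and from -0.16 to 0.16. TBI replicate 5, second in Gal, was the lowest of all 10 in Slc1a2, at 135 CPM, and TBI replicate 4 the lowest in Slc1a3, at 327 CPM. Gfap was 1630 CPM in sham replicate 3 and 776 to 910 CPM in the other sham rats, and 980 CPM in TBI replicate 3 and 1700 to 2310 CPM in the other TBI rats. When Gal was set relative to the summed astrocyte markers, a choice made after seeing the data, the TBI rats were 0.90 higher on the log2 scale (two-sided exact permutation p = 0.00794, the smallest this test can give, n = 5 per group). This sum also holds both glutamate transporter genes, whose intervals included 0, so it can rise less than Gfap. The ratio therefore does not show whether Gal rose more than Gfap, and Gal relative to Gfap alone was not tested. The orexin gene Hcrt, a hypothalamic peptide gene, was also higher in TBI, at 1.70 to 7.41 CPM in sham and 5.66 to 9.97 CPM in TBI rats. Of the 5 markers of thalamus and hypothalamus, of which Hcrt is 1, Lhx9 and Slc17a6 had log2 changes of 0.04 and 0.09, Pmch was below the filter with 38 counts, and Tcf7l2 was not analysed here. The part of neighbouring tissue in the Gal values was not tested.

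Nts encodes the precursor of neurotensin and neuromedin N, and in the hippocampal formation it is known from the subiculum and CA1. It was 0.437, 0.108, 1.20, 0.612 and 1.56 CPM in sham and 6.50, 6.44, 1.23, 0.0633 and 3.68 CPM in TBI rats, in order of replicate. TBI replicates 1, 2 and 5 stood above all other rats, TBI replicate 3 lay within the sham range, and TBI replicate 4 was the lowest of all 10. That library held 2 Nts counts, which gives an exact Poisson interval of 0.00766 to 0.228 CPM for counting error only, against 224 counts in TBI replicate 1. The means were 0.784 CPM ± 0.589 in sham and 3.58 CPM ± 2.94 in TBI (SD, n = 5), and the spread among TBI rats was 82.1% of their mean. Nts thus had a log2 change of 2.28 (SE 0.969, edgeR adjusted p = 0.626). The unadjusted p of 0.0457 was over 0.05 in 8 of the 10 fits that left out 1 rat, all but those without TBI replicate 3 or 4, and the log2 change in the 10 fits was 1.95 to 2.60. The two-sided exact permutation p was 0.238 on log2 CPM (n = 5 per group).

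The Nts values followed the markers of CA1, a field next to the pieces dissected. The CA1 markers Fibcd1, Wfs1, Pou3f1 and Spink8 together were 65.4, 49.6, 106, 73.7 and 76.8 CPM in sham and 216, 376, 101, 37.4 and 144 CPM in TBI rats. The 3 rats highest in these markers were the 3 highest in Nts, and TBI replicate 4 and sham replicate 2 were the lowest in both. Of the 4 markers 3 were tested, all with higher values in TBI and 1, Wfs1, with an unadjusted p under 0.05, and Spink8 was at 0 in 9 libraries. Relative to the summed CA1 markers, the TBI rats were 0.65 higher in Nts on the log2 scale (two-sided exact permutation p = 0.373, n = 5 per group, a choice made after seeing the data). How much CA1 each dissected piece held was not tested.

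**Figure D2:**
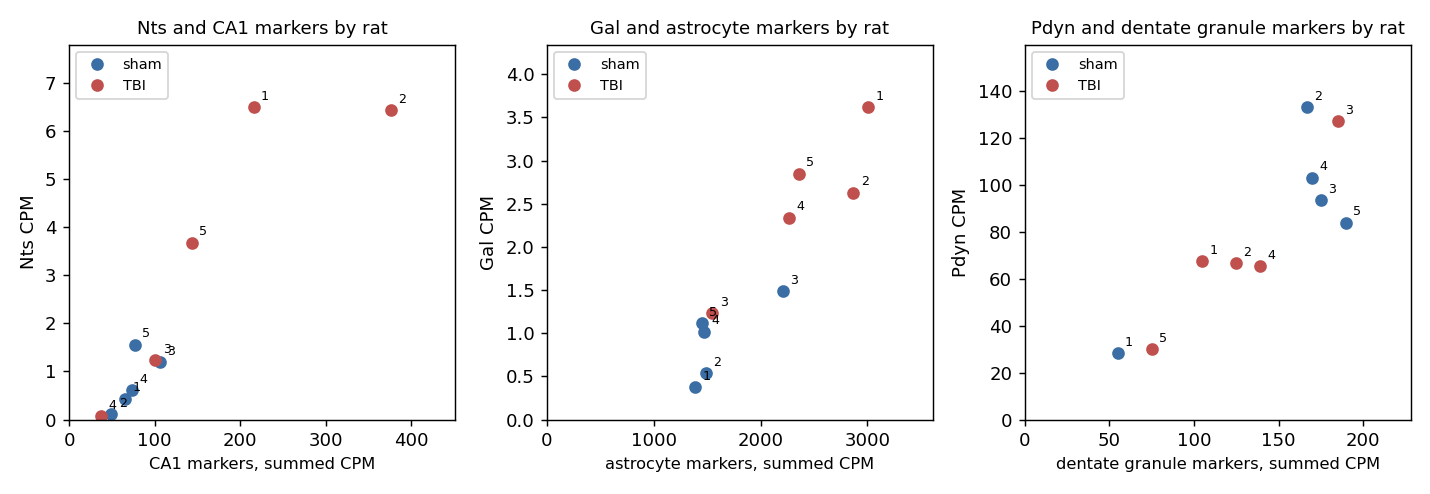
Each point is 1 rat, with its replicate number, and shows Nts, Gal or Pdyn (y axis, CPM) against the summed CPM of the CA1, astrocyte or dentate granule markers (x axis). The 3 rats with Nts of 3.68 CPM or more have 144 CPM or more of CA1 markers, the 4 rats with most Gal have the highest sums of astrocyte markers, which are mostly Gfap, and the 5 rats with least Pdyn have least dentate granule markers.

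Because Gal and Nts had the largest changes of the 10 genes, the 250 bases before their annotated starts are shown, taken from RefSeq on the GRCr8 assembly. The window of Gal is chr1:210084573-210084822 and that of Nts is chr7:39460889-39461138, both on the minus strand and written 5′ to 3′. Capitals mark matches, on either strand, to the cyclic AMP response element TGACGTCA (CRE), its half-site TGACG, which every CRE also holds, the AP-1 element TGACTCA or the TATA box TATAAA.
Gal: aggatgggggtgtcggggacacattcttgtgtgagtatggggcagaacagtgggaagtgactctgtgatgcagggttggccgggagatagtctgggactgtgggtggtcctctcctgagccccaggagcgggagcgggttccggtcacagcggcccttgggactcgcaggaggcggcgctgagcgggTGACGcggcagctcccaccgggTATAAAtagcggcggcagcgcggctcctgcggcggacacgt
Nts: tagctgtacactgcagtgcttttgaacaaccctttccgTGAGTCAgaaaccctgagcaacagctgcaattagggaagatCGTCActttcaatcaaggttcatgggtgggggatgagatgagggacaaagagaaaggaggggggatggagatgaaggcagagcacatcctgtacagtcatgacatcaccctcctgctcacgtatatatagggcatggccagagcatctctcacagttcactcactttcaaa
The Gal window held a CRE half-site 63 bases before the start and a TATA box. The Nts window held an AP-1 element, read from the other strand, and a CRE half-site. Of all 33469 windows of this length, 18.2% held the half-site, 4.05% the AP-1 element and 12.9% the TATA box. A match of letters is a description and not a binding site. Windows were found for 8 of the 10 genes, and 5 of the 8 held the half-site.

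Adcyap1 encodes the precursor of PACAP, a peptide of the secretin family that raises cyclic AMP in neurons. It was 2.40, 1.72, 1.98, 1.97 and 3.44 CPM in sham and 1.57, 1.46, 2.79, 4.11 and 3.08 CPM in TBI rats. TBI replicates 1 and 2 were the lowest and TBI replicate 4 the highest of all 10, so that the TBI rats covered more than the sham range. For Adcyap1 the log2 change was 0.19 with a 95% interval from -0.40 to 0.79, and -0.03 without TBI replicate 4.

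Among the granins, Scg2 alone had an unadjusted p under 0.05. It encodes secretogranin II, the precursor of secretoneurin. It was 104, 126, 104, 113 and 122 CPM in sham and 91.2, 87.3, 99.9, 96.6 and 92.0 CPM in TBI rats. Each TBI rat was below each sham rat, and Scg2 was the only 1 of the 10 genes whose groups did not overlap, which was the case for 0.923% of all records. The gap was narrow: counting error alone gives 96.6 to 103 CPM for TBI replicate 3 and 100 to 107 CPM for the lowest sham rats (exact Poisson 95% intervals). The means were 114 CPM ± 10.5 in sham and 93.4 CPM ± 4.90 in TBI (SD, n = 5). Scg2 thus had a log2 change of -0.28 (SE 0.0780, edgeR adjusted p = 0.478), and the two-sided exact permutation p on log2 CPM was 0.00794 (n = 5 per group). That is the smallest p this test can give. It follows from the lack of overlap and adds nothing to it. An unadjusted p under 0.05 held in each fit that left out 1 rat, with log2 changes of -0.32 to -0.24. With total count scaling the log2 change was 0.23, where the median of all records was 0.50, and thus -0.27 relative to that median. With total counts outside ribosomal RNA it was -0.13, where the median of all records was 0.141, and the unadjusted edgeR p was 0.293.

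For the remaining granins the 95% intervals included no change. Vgf encodes a granin-like precursor known as a target of neurotrophins and activity. It was 47.2, 27.9, 43.0, 38.7 and 51.7 CPM in sham and 33.8, 45.1, 52.4, 46.1 and 46.6 CPM in TBI rats, with sham replicate 2 the lowest of all. Vgf had a log2 change of 0.11 with a 95% interval from -0.22 to 0.43, and -0.01 without sham replicate 2. Chga, which encodes chromogranin A, was 95.7, 80.8, 96.3, 99.1 and 113 CPM in sham and 96.6, 109, 110, 73.3 and 116 CPM in TBI rats. TBI replicates held both its lowest and its highest value. Its log2 change was 0.06 with a 95% interval from -0.18 to 0.30. Chgb, which encodes chromogranin B, was 593, 532, 524, 550 and 644 CPM in sham and 555, 432, 565, 697 and 656 CPM in TBI rats. Here too the TBI rats spread on both sides of the sham rats, and the log2 change was 0.03 with a 95% interval from -0.20 to 0.26. For Chga and Chgb changes of more than 1.23-fold and 1.20-fold upward lay outside these intervals, while for Pdyn an increase of up to 1.68-fold lay within.

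Scg2 and Vgf were the genes of the 8 whose windows held a full CRE. Unlike those of Gal and Nts, both windows lie inside the annotated span of their gene and so precede an inner start. A full CRE was found in 1.59% of all windows. The 30 bases around it are shown from RefSeq, GRCr8, both on the minus strand and written 5′ to 3′ with the CRE in capitals, at chr9:88256971-88257000 for Scg2 and chr12:25277092-25277121 for Vgf.
Scg2: ggctgagccggTGACGTCAgcgaggaatgc
Vgf: tgaatgaacatTGACGTCAatggggcgggg
Cyclic AMP response elements are known from promoters that respond to activity. Of 8 activity genes, all tested, 1 was higher in TBI at an unadjusted p under 0.05, against 4.89% of all records. This was Nr4a1, with 16.8 CPM ± 3.53 in sham and 23.7 CPM ± 5.82 in TBI (SD, n = 5). Of the 8, 6 had a log2 change above 0 and 2 below, with a median of 0.20. Fos and Bdnf had log2 changes of 0.47 and -0.11. The summed level of the 8 genes was 90.5 to 148 CPM in sham and 118 to 185 CPM in TBI rats.

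**Figure D3:**
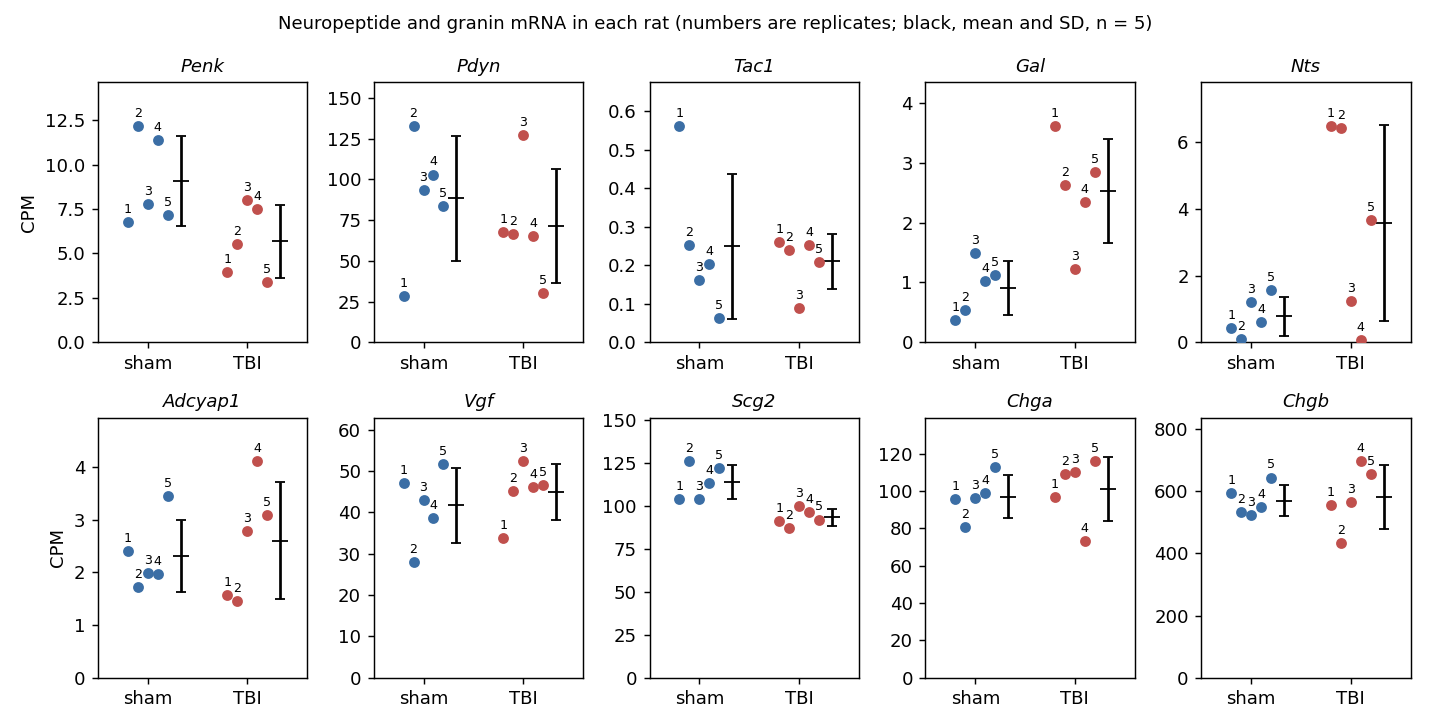
CPM of the 10 genes (y axis, from 0, a scale for each gene) in each sham and TBI rat, with replicate numbers beside the points and the mean and SD in black (n = 5). TBI replicates 1, 2, 4 and 5 lie above all sham rats for Gal, only 3 TBI rats do for Nts, and all 5 TBI rats lie below the sham rats for Scg2.

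The spread among rats differed widely between the genes. In sham rats the SD was 8.79% of the mean for Chgb, 9.22% for Scg2 and 11.7% for Chga, against 43.3% for Pdyn, 49.9% for Gal and 75.1% for Nts. No single library was extreme throughout: sham replicate 2 was the highest of the 10 for 3 genes and TBI replicate 2 the lowest for 3. TBI replicate 3 was the TBI rat nearest the sham mean for Gal, Nts and Scg2, and for Penk it was the TBI rat with the highest value.

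Genes with the most similar profile over the 10 libraries were sought among 10718 others with a mean of at least 1 CPM, by Pearson r of log2 CPM, as a description. For Gal these were Ftl1 (r = 0.979), Fxyd1 (r = 0.976) and Cavin3 (r = 0.964). For Scg2 they were Abcd3 (r = 0.984), Sdcbp (r = 0.953) and Blmh (r = 0.949). For Penk they were Fhl1 (r = 0.916), Allc (r = 0.913) and Olfm2 (r = 0.912). All these values share the 10 libraries, their scaling and the difference between the groups, and the best of so many genes is high by choice.

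Receptors of these peptides were examined next. Of 14 receptor genes 11 were tested. At an unadjusted p under 0.05, 2 were higher in TBI, against 4.89% of all records, and 3 were lower, against 3%. Of the 11, 0 passed adjustment in edgeR's quasi-likelihood test. Their median log2 change was -0.03. The mu opioid receptor gene Oprm1 was 0.257 CPM ± 0.106 in sham and 0.111 CPM ± 0.0518 in TBI (SD, n = 5), from 52 counts in all, and its log2 change was -1.28 (SE 0.427). Tacr1, the receptor of substance P, was 6.14 CPM ± 1.15 in sham and 4.68 CPM ± 0.620 in TBI (SD, n = 5), and its log2 change was -0.38 (SE 0.136). Ntsr2, a neurotensin receptor known from astrocytes, was 87.2 to 125 CPM in sham and 104 to 146 CPM in TBI rats, and its log2 change was 0.30 (SE 0.109). Vipr1 and Vipr2, receptors shared by VIP and PACAP, had log2 changes of -0.28 and 0.40. The delta opioid receptor gene Oprd1, at -0.41, and Ntsr1, at -0.60, had larger changes than some of these but also larger standard errors, 0.253 and 0.372.

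For galanin, the receptor gene with enough reads was Galr2, at 2.05 CPM ± 0.898 in sham and 2.01 CPM ± 0.477 in TBI (SD, n = 5). Galr1, with 29 counts over all libraries, and Galr3, with 4, were below the filter, as was the kappa opioid receptor gene Oprk1 with 27. The PACAP receptor gene Adcyap1r1 had a log2 change of -0.03 with a 95% interval from -0.29 to 0.22, and Sort1, which encodes the sorting receptor sortilin that also binds neurotensin, of -0.01 with an interval from -0.18 to 0.16.

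**Figure D4:**
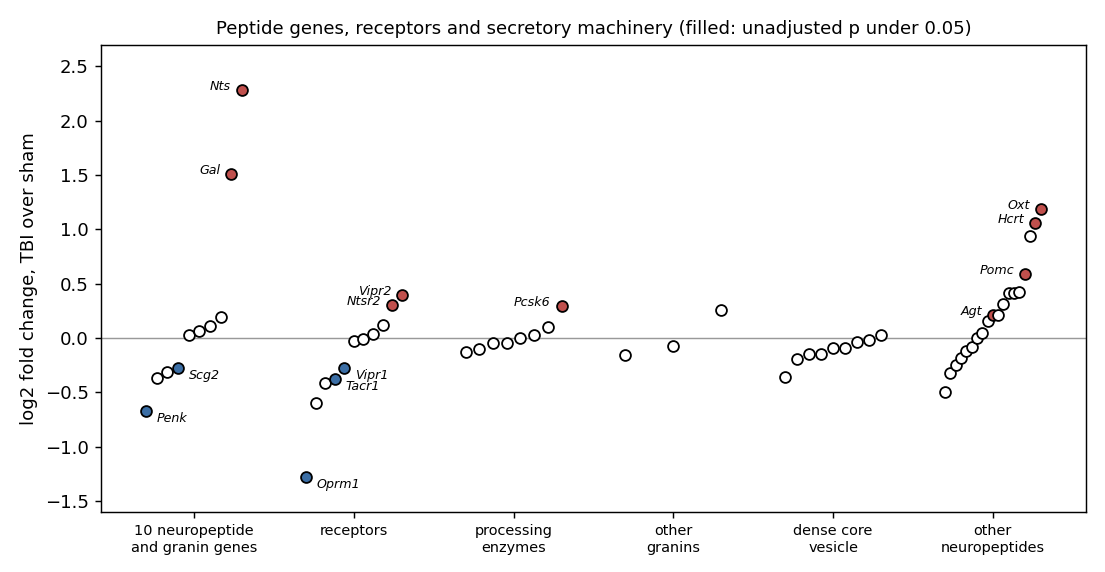
Log2 fold change, TBI over sham (y axis), of each tested gene among the 10 genes, their receptors, processing enzymes, other granins, dense core vesicle genes and other neuropeptides (x axis). Filled points have an unadjusted p under 0.05 and carry their names, red above 0 and blue below, and open points do not, with Nts at 2.28 the highest and Oprm1 at -1.28 the lowest.

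Genes that process and package the precursors followed. Of 9 processing genes 8 were tested, with log2 changes from -0.13 to 0.29 and a median of -0.02. Pcsk6, a proprotein convertase of the secretory pathway, was the 1 with an unadjusted p under 0.05, at 25.5 CPM ± 3.23 in sham and 31.1 CPM ± 3.94 in TBI (SD, n = 5). Pcsk1 and Pcsk2, the prohormone convertases of dense core vesicles, had log2 changes of -0.13 and -0.05, and Cpe, which trims the cut ends, of 0.03. Of the 3 other granins Scg3, Scg5 and Pcsk1n, 0 had an unadjusted p under 0.05, with log2 changes of -0.07, -0.16 and 0.26. Of 10 dense core vesicle genes 9 were tested and 0 had an unadjusted p under 0.05. Of the 9, 8 had a log2 change below 0, the median was -0.09, and the smallest p-values were those of Ica1 and Rab27b, at -0.15 and -0.36.

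Of 22 other neuropeptide genes 19 were tested. At an unadjusted p under 0.05, 4 were higher in TBI, against 4.89% of all records, and 0 were lower, against 3%. Of the 19, 0 passed adjustment in edgeR's quasi-likelihood test. Their median log2 change was 0.21. The 4 were Hcrt, with a log2 change of 1.06, Oxt, the oxytocin gene, with 1.19, Pomc, the precursor of beta-endorphin and melanocortins, with 0.59, and Agt, the angiotensinogen gene known from astrocytes, with 0.21. Oxt was 0.470 CPM ± 0.230 in sham and 0.998 CPM ± 0.646 in TBI, and Pomc was 1.28 CPM ± 0.307 in sham and 1.93 CPM ± 0.755 in TBI (SD, n = 5). The interneuron peptides Sst, Npy, Vip, Cck and Cort had log2 changes of -0.32, -0.12, -0.18, 0.21 and 0.41, and each 95% interval included 0. Among markers of GABAergic interneurons, which also hold part of hippocampal Penk, all 5 had a log2 change below 0. Of the 5, 2, Gad1 and Gad2, were lower at an unadjusted p under 0.05, against 3% of all records. Both also stand in the study's own list of altered genes for this model, so this count is not independent evidence. The summed level of the 5 markers was 171 to 242 CPM in sham and 125 to 200 CPM in TBI rats. The part of interneurons in the Penk values was not tested.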

How the data were processed

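Poly-A RNA of 10 rats (5 sham, 5 TBI) was read for 36 cycles. The authors deposited raw counts per RefSeq RNA record, with no normalization. Per the methods and labels, reads were aligned with BWA to rn4, and an Ensembl transcript annotation is named, although the rows are RefSeq records. Strand was not stated, so overlapping and near-identical transcripts are uncertain. The unmapped reads (median 22.2% of reads) and an empty entry were left out. Symbols came from a RefSeq table of GRCr8, used for names only (54.2% of 32041 records matched). Columns of the table were matched to rats by the rat number in the sample titles.

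Records with a total count of at least 44 (the 30th percentile, as in the study) were tested: 22431 records, edgeR 4.0.16, quasi-likelihood F test with robust estimation, TMM, Benjamini-Hochberg adjustment over all records, R 4.3.3. Standard errors are the log2 change divided by the root of F, and 95% intervals use the t distribution of the fit. Log2 CPM used a prior count of 2. Single genes were also compared by a two-sided exact permutation test over 252 splits. The test was checked on simulated data with known changes. Alternatives were the exact test, DESeq2 1.42.0, other scalings and filters, a covariate for the ribosomal share, leaving out rats, and summed records. Poisson intervals cover counting error only, and reads carry no molecular identifiers. Nothing says whether the rats shared a surgery or library batch.

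The genes and lists were chosen with earlier results of these data known. Named beyond the 10 genes were list genes with an unadjusted p under 0.05, or else the 2 with the smallest p in a list, receptors of the peptides, and the 3 genes most alike by Pearson r; further list members, marker genes and interneuron peptides were named after their values were seen. Figures were drawn with matplotlib 3.10.9.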

Additional observations from a re-analysis of the deposited data

How the results depend on the processing

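The number of the 10 genes past an adjusted p of 0.05 was 0, and it was 1, in each case Gal, with DESeq2 and with total count scaling. DESeq2 called 3 records, and total count scaling called 92 of 22431, against 0. DESeq2 gave some records no adjusted p, Tac1 among them, and so adjusted over fewer records. Across the fits that each left out 1 rat the number of the 10 genes was 0 to 1, with 1 without TBI replicate 3, where 12 of 22214 records were called. The number with an unadjusted p under 0.05 was 4, and 1769 of all records. It was 2 with total counts outside ribosomal RNA, with the ribosomal RNA covariate and without the libraries over 50% ribosomal RNA, and 2 to 4 when 1 rat was left out, with 2 without sham replicate 2 or 4 and without TBI replicate 1 or 2. The same fits gave 2902 of all 22431 records with total counts outside ribosomal RNA, 795 of 22431 with the covariate, 1248 of 22228 without the rich libraries and 1156 to 2551 when 1 rat was left out, and total count scaling gave 3788 of 22431. Gal and Scg2 kept an unadjusted p under 0.05 in each of these fits except Scg2 with both scalings by total counts. With the ribosomal RNA covariate 3 receptors and 2 other neuropeptides had an unadjusted p under 0.05, against 5 and 4. When 1 rat was left out the numbers were 4 to 5 for receptors, 1 to 2 for processing genes, 0 to 1 for other granins, 0 to 1 for dense core vesicle genes and 1 to 5 for other neuropeptides, the 1 being without sham replicate 2.

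Directions were reversed with total count scaling for Pdyn (0.18), Tac1 (0.11) and Scg2 (0.23), a scaling that moved the median of all records to 0.50. When 1 rat was left out the log2 changes were -0.55 to 0.23 for Tac1, -0.03 to 0.35 for Adcyap1, -0.01 to 0.19 for Vgf and -0.04 to 0.12 for Chgb. They were reversed for Tac1 without sham replicate 1 (0.23), Adcyap1 without TBI replicate 4 (-0.03), Vgf without sham replicate 2 (-0.01) and Chgb without TBI replicates 4 (-0.04) or 5 (-0.02). The cause was not tested. No paired analysis was possible because replicates were numbered by accession order and no label links a sham rat to a TBI rat. Few counts limit Tac1, with 1 to 18 per library on its main record, and Oprm1, with 52 over all libraries.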

Other observations

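In the 20 groups of 5 rats formed by the 10 genes, Dixon's test at its 95% critical value marked 0 rats as standing apart, where chance gives about 1. Markers that are strong in the striatum, where Penk, Pdyn and Tac1 are abundant, were also looked at. All 6 were tested, and 1 was higher and 1 lower in TBI at an unadjusted p under 0.05. Ppp1r1b had a log2 change of 0.38 and Drd2 of -0.52, and of the 6, 3 lay above 0 and 3 below. The summed level, which was mostly Ppp1r1b, was 66.1 to 102 CPM in sham and 99.2 to 111 CPM in TBI rats. Choroid plexus markers were 6.21 to 34.6 CPM in sham and 11.2 to 34.7 CPM in TBI rats, with 1 of 4, Folr1, higher at an unadjusted p under 0.05. Microglia markers were 90.5 to 146 CPM in sham and 109 to 164 CPM in TBI rats, with 1 of 4, Aif1, higher, and CA3 markers were 437 to 568 CPM in sham and 398 to 567 CPM in TBI rats, with 0 of 5. The part of these cells and regions in the values of the 10 genes was not tested.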
